A study of Mus musculus with 12 samples.

Results

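The 9 genes described here encode immune checkpoint molecules and receptors of natural killer (NK) cells: Cd274, Pdcd1, Lag3, Tigit, Ctla4, Havcr2, Klrc1, Klrd1 and Klrk1. They were taken by symbol from the 21983 genes of a brain RNA-seq count table, and all 9 were found. The 12 libraries came from whole brains of wild type C57BL/6 mice aged 6 weeks and fall into 3 groups of 4. Treated ECM libraries came from mice with experimental cerebral malaria (ECM) that received artesunate, an antimalarial drug, for 4 days. ECM libraries came from mice with experimental cerebral malaria and no artesunate, and control libraries from normal mice. The labels name no parasite, day of infection or drug dose. They also do not tie each library to an animal of its own, and p-values therefore measure the spread between these samples, which may be technical.

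Checkpoint receptors are proteins on the surface of lymphocytes that lower their activity when they bind a ligand on another cell. PD-1, CTLA-4, LAG-3, TIGIT and TIM-3 are the best known, and PD-L1 is the main ligand of PD-1, made by many cell types after exposure to interferon. CD94 pairs with NKG2A into an inhibitory receptor of NK cells and some CD8 T cells, while NKG2D is an activating receptor of the same cells. In experimental cerebral malaria, CD8 T cells that collect in brain vessels are known to drive disease, and checkpoint receptors are known to limit such cells.

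Reads assigned to genes ranged from 13342177 to 18886822 per library. The tissue showed its own markers in every library, with summed levels of 5 neuron markers between 4663 and 8627 CPM, the reads of a gene scaled to the size of the library. ECM 3 (7844 CPM) and control 4 (8627 CPM) stood above the other libraries on that sum, which reached at most 6230.2 CPM elsewhere. T cell and monocyte markers moved with the groups. All 9 measured T cell markers rose in ECM against control, where 7.3% of all genes tested rose. Their summed level lay between 7.10 and 19.3 CPM in treated ECM, between 36.8 and 59.3 CPM in ECM and between 1.22 and 2.41 CPM in control libraries. Of the 4 B cell markers none reached the test, and their sum stayed at or below 1.28 CPM in every library. In whole brain RNA, fewer cells of a type and less RNA per cell cannot be told apart.

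**Figure D1:**
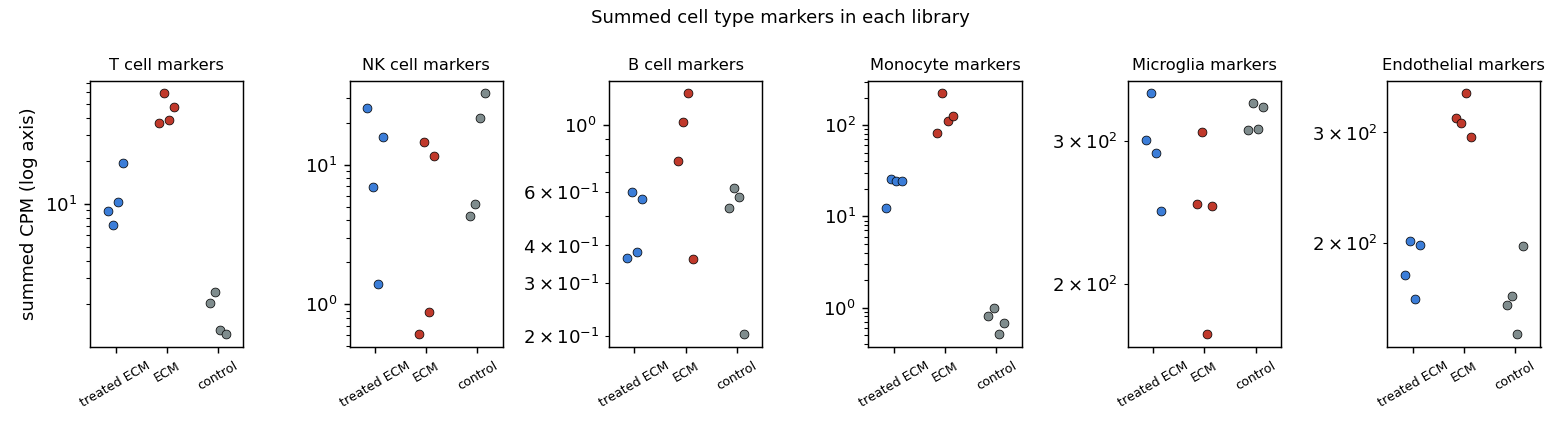
Summed level (CPM, log axis) of cell type marker genes in each of 12 libraries, with the treated ECM group left of ECM and control in each panel. T cell and monocyte markers are highest in the 4 ECM libraries, and the NK cell sum, which is mostly Eomes, shows no such order.

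The 9 genes formed a low-abundance group apart from Cd274. At the standard filter on low counts 7 of them entered the test of 14602 genes, while Pdcd1 and Ctla4 did not. Those 2 were tested in a second fit that kept genes at a lower minimum count (15817 genes). In ECM against control, 6 of the 7 tested genes rose, and the lone gene not called was Lag3; of all genes tested, 7.3% rose. In treated ECM against ECM, 6 of the 7 fell, Lag3 again being the gene not called, where 5.68% of all genes fell. In treated ECM against control, 3 of the 7 were higher, namely Cd274, Klrd1 and Klrk1, where 1.97% of all genes were higher. In the second fit Pdcd1 and Ctla4 both rose in ECM against control (background 7.21%) and both fell in treated ECM against ECM (background 5.17%), and neither was called in treated ECM against control (background 1.83%). Genes with next to no reads in controls entered the test only through their ECM libraries, so these counts describe the genes that could be tested and not all 9. The calls are from edgeR's quasi-likelihood test with Benjamini-Hochberg adjustment over all genes of the fit, at an adjusted p below 0.05. In CPM, all 4 ECM libraries lay above all 4 control libraries for 8 of the 9 genes, as they did for 9.05% of the genes tested. All 4 treated ECM libraries lay below all 4 ECM libraries for 8 genes (11.4% of the genes tested) and above all 4 control libraries for Cd274, Lag3, Klrd1 and Klrk1 (10.8% of the genes tested). The comparisons share libraries, so a gene with 1 high group appears in more than 1 of them.

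**Figure D2:**
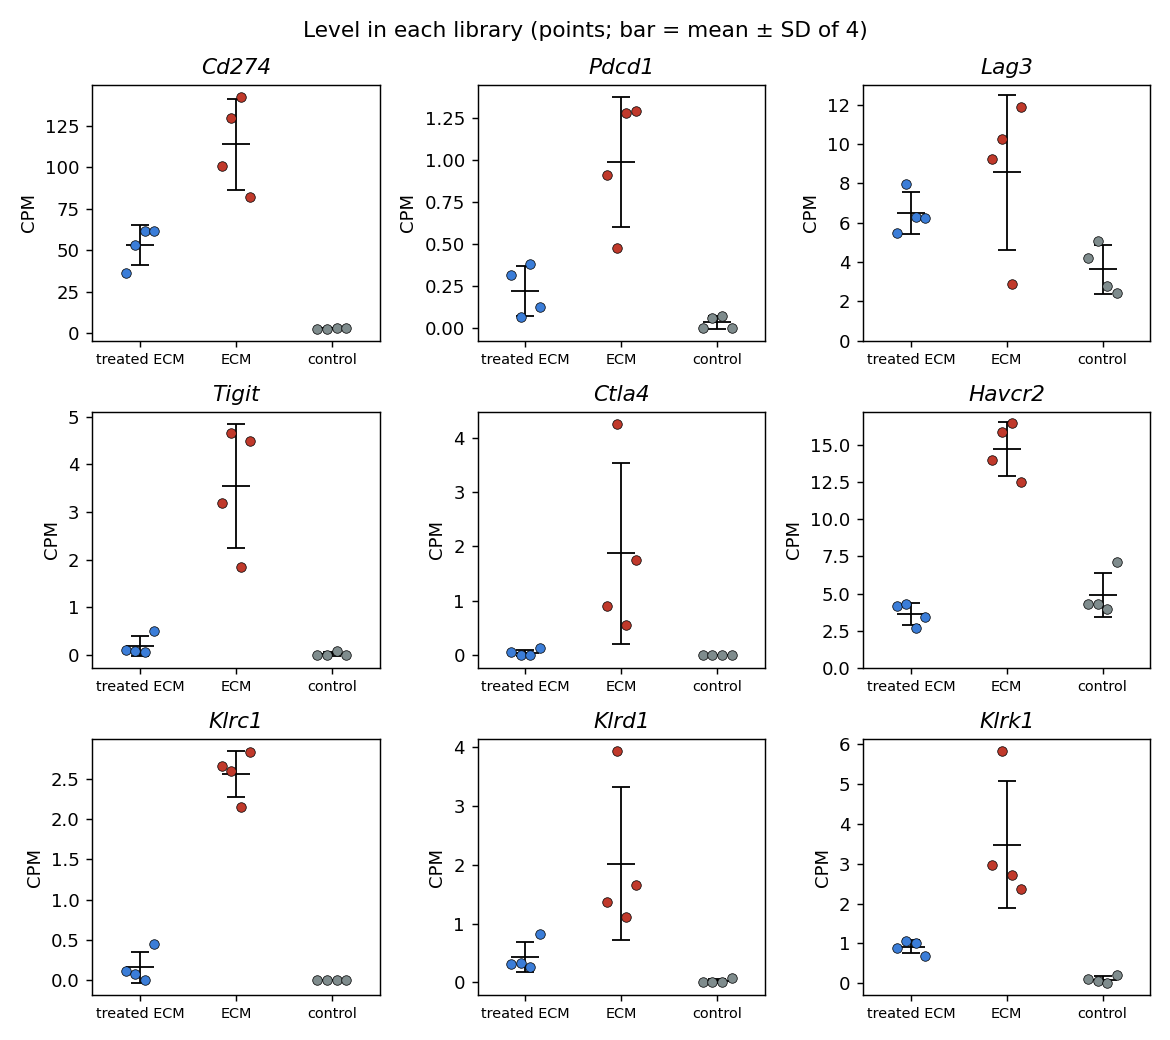
Level of each of the 9 genes in CPM (linear axis, own scale per gene) in the treated ECM, ECM and control groups, 1 point per library, with the mean ± SD of 4. Groups are fully separated between treated ECM and ECM in every panel but that of Lag3, where ECM 3 lies below all 4 treated ECM libraries.

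Upstream sequence is shown for 4 of these genes, because it gives the reader the stretch before the start of Cd274, the most abundant gene, of Tigit and Klrc1, whose levels ran most alike among the 7 tested genes, and of Klrk1, which kept a raised level in treated ECM. Each is the 250 bases before the start in the sense direction, from RefSeq on GRCm38.p6, at chr19:29367188-29367437 (plus strand) for Cd274, chr16:43664185-43664434 (minus strand) for Tigit, chr6:129678974-129679223 (minus strand) for Klrc1 and chr6:129623865-129624114 (minus strand) for Klrk1. Capitals mark matches to the motifs described next.
Cd274: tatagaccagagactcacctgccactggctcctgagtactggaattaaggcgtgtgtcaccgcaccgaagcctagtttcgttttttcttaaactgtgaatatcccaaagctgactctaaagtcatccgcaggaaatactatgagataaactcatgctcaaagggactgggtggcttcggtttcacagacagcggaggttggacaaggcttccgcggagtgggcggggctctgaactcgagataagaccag
Tigit: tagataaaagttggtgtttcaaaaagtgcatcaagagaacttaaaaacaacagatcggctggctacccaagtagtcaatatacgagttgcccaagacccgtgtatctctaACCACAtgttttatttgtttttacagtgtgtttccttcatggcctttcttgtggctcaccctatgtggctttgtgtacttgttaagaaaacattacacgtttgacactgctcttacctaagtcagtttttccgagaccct
Klrc1: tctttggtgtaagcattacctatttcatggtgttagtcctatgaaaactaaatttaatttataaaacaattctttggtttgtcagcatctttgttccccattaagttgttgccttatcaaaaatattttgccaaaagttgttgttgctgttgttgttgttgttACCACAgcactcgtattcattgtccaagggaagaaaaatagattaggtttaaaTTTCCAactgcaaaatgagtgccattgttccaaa
Klrk1: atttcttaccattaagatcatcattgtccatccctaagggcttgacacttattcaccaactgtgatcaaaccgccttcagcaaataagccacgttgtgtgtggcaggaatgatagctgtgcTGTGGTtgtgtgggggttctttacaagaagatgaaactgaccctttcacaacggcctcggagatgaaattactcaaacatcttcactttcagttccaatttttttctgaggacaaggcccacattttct

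The table of RefSeq promoters, each 300 bases long (250 before and 50 after the start), held 7 of the 9 genes and not Lag3 or Klrd1. It was searched on both strands for 6 short motifs: the interferon-stimulated response element (in 3.44% of 32851 promoters), the kappa B motif (20.7%), TTCNNNGAA (gamma-activated site, 8.3%), TGANTCA (AP-1, 7.81%), TGTGGT (RUNX, 16.8%) and TGGAAA (NFAT-like, 21.4%). The RUNX letters were found in Tigit, Havcr2, Klrc1 and Klrk1. With the start base counted as 0, they lie at -140 to -135 in Tigit, -46 to -41 in Havcr2, -87 to -82 in Klrc1 and -129 to -124 in Klrk1. NFAT-like letters were found in Ctla4 (-144 to -139) and Klrc1 (-34 to -29). The Ctla4 window is chr1:60908775-60909074 (plus strand). It lies inside the GENCODE span given for that gene below, so its start is not the first base of that span. AP-1 letters were found in Havcr2 (-200 to -194) and, past the start and so not in the stretch printed above, in Klrk1 (17 to 23). No match overlapped another, and none of the 6 motifs was found in the windows of Cd274 and Pdcd1. These are matches of letters only.

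Cd274 encodes PD-L1, the ligand of PD-1, and lies on chromosome 19 from 29367455 to 29388095 on the plus strand (mm10, GENCODE M21). It had 691, 790, 971 and 977 counts in treated ECM libraries 1 to 4, 1324, 1650, 1784 and 1590 counts in ECM libraries and 48, 42, 40 and 48 counts in control libraries. All 4 ECM libraries lay above all 4 treated ECM libraries, which in turn lay far above the controls. The mean level was 53.0 ± 12.1 CPM in treated ECM, 114 ± 27.5 CPM in ECM and 2.83 ± 0.318 CPM in control libraries (SD, n = 4 each). Cd274 rose 40.2-fold in ECM against control (log2 fold change 5.33 ± 0.25 SE, adjusted p = 8.84e-08 by edgeR's quasi-likelihood test). In treated ECM it fell 2.15-fold against ECM (log2 fold change -1.10 ± 0.21, edgeR adjusted p = 0.0068) and was still 18.7-fold above control (log2 fold change 4.23 ± 0.24, edgeR adjusted p = 6.01e-07). Across 511 exonic bases Cd274 overlaps an annotated antisense gene, AC119228.1, and the kit in the labels is not described as strand-specific, so reads of the pair cannot be told apart there.

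Genes of the interferon-gamma pathway that is known to induce PD-L1 moved in part. Of 10 tested, 4 rose in ECM against control, among them Ifng, Ifngr1 and Irf1, where 7.3% of all genes rose. Here and in the lists below, genes with few control reads could enter the test only through the other groups. The median log2 fold change of the 10 was 0.56, where the median of all genes was 0.00. Irf1, a transcription factor that acts on the Cd274 promoter, averaged 34.4 ± 7.16 CPM in treated ECM, 31.8 ± 1.61 CPM in ECM and 3.92 ± 0.771 CPM in control libraries. Ifngr1, which encodes a chain of the receptor, averaged 18.3 ± 1.95 CPM in treated ECM, 34.2 ± 5.7 CPM in ECM and 18.2 ± 1.73 CPM in control libraries. In treated ECM against ECM, 2 of the 10 fell, where 5.68% of all genes fell. Ifngr1 was among them (log2 fold change -0.90 ± 0.16, edgeR adjusted p = 0.00486), while Irf1 was not called (0.11 ± 0.19, adjusted p = 0.743). The median of the list in that comparison was -0.40, against -0.01 for all genes.

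Ifng itself, the cytokine, had a mean of 1.33 ± 0.644 CPM in treated ECM, 2.74 ± 1.34 CPM in ECM and 0 in control libraries, and its difference between treated ECM and ECM was not called (log2 fold change -1.04 ± 0.47, edgeR adjusted p = 0.195). Against control, 4 of the 10 were higher in treated ECM, as were 1.97% of all genes. Among them were Ifng, Irf1 and Socs1, the last a feedback inhibitor of this pathway (log2 fold change 2.39 ± 0.48, edgeR adjusted p = 0.0165). Unlike Ifngr1, these kinase and receptor genes of the list stayed below the threshold in ECM against control: Jak1 (0.21 ± 0.16, edgeR adjusted p = 0.477), Jak2 (0.03 ± 0.24, adjusted p = 0.961) and Ifngr2 (-0.16 ± 0.18, adjusted p = 0.666). Cmtm6, whose protein keeps PD-L1 at the cell surface, was not called either (0.11 ± 0.17, adjusted p = 0.776).

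Markers of cell types that can carry PD-L1 also changed in the same libraries. Of all genes tested, 7.3% rose and 2.91% fell in ECM against control, and 5.68% fell in treated ECM against ECM. The 6 monocyte markers all rose in ECM against control and all fell in treated ECM against ECM, with summed levels of 12.4 to 25.8 CPM in treated ECM, 81.8 to 224 CPM in ECM and 0.509 to 0.990 CPM in control libraries. Of 6 endothelial markers 4 rose and 1 fell in ECM against control, and the sums were 162 to 201 CPM in treated ECM, 295 to 347 CPM in ECM and 143 to 197 CPM in control libraries. Their part in the level of Cd274 was not tested.

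Pdcd1 encodes PD-1, the receptor for PD-L1, and lies on chromosome 1 from 94038305 to 94052553 (minus strand). Its counts were 6, 1, 6 and 2 in treated ECM, 12, 6, 16 and 25 in ECM and 0, 1, 1 and 0 in control libraries. ECM libraries were all above control libraries, and in CPM all above treated ECM libraries, but ECM 2 with 6 counts was close to treated ECM 1 and 3. Pooled over libraries, 59 reads in ECM against 2 in control gave a ratio of 32.4 with a 95% counting interval of 8.59 to 274. This and the other intervals cover counting error only. In the second fit Pdcd1 was called higher in ECM against control (edgeR adjusted p = 0.00123) and lower in treated ECM against ECM (log2 fold change -2.11 ± 0.58, edgeR adjusted p = 0.0421). The call in treated ECM against ECM held without ECM 2 or control 4 and was lost when any 1 of the other 10 libraries was left out (edgeR adjusted p = 0.0521 to 0.131).

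PD-1 works through the phosphatases SHP-1 and SHP-2. The gene of SHP-1, Ptpn6, averaged 9.04 ± 1.62 CPM in treated ECM, 12.5 ± 3.04 CPM in ECM and 4.52 ± 0.764 CPM in control libraries and rose in ECM against control (log2 fold change 1.47 ± 0.23, edgeR adjusted p = 0.00074). Ptpn11, the gene of SHP-2, averaged 293 ± 15.6 CPM in treated ECM, 294 ± 65.2 CPM in ECM and 271 ± 22.2 CPM in control libraries and was not called in any comparison. The other PD-1 ligand gene, Pdcd1lg2, had at most 4 counts in any of the 11 libraries used for it and was not tested.

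Ctla4 encodes CTLA-4, which takes the B7 ligands CD80 and CD86 away from the costimulatory receptor CD28, and lies on chromosome 1 from 60887000 to 60915832 (plus strand). It had 1, 0, 0 and 2 counts in treated ECM, 12, 54, 7 and 34 counts in ECM and 0 counts in all 4 control libraries. The ECM libraries were the only ones with more than 2 counts, and they differed widely, ECM 2 holding 54 of 107 reads. Against a floor of 3 counts over the control group, Ctla4 reads were 39.2-fold higher in ECM (edgeR adjusted p = 0.00232 in the second fit). That fold takes the ECM reads without their counting error, so it is not a lower limit. Pooled reads were 40.6-fold lower in treated ECM than in ECM, with a counting interval of 13.5-fold to 200.2-fold (edgeR log2 fold change -5.13 ± 0.94, adjusted p = 0.0104, -6.06 without treated ECM 4 and -4.37 without ECM 2). With 3 reads over treated ECM and 0 over control libraries, no fold is given for that comparison.

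Among 9 tested genes of the CD28 family and the B7 ligands, 4 rose in ECM against control and the same 4 fell in treated ECM against ECM: Cd86, Icosl, Icos and Btla. Of all genes tested, 7.3% rose and 5.68% fell in the same comparisons. Btla had at most 3 counts in a control library and 15 to 24 in ECM libraries, through which it entered the test. Cd86, the B7 ligand of antigen-presenting cells, averaged 2.23 ± 0.24 CPM in treated ECM, 11.2 ± 3.55 CPM in ECM and 2.56 ± 0.524 CPM in control libraries. Its log2 fold change was 2.13 ± 0.26 in ECM against control (edgeR adjusted p = 8.44e-05) and -2.32 ± 0.26 in treated ECM against ECM (edgeR adjusted p = 0.000387). In treated ECM against control it was not called (-0.19 ± 0.26, adjusted p = 0.733). Icosl, the ligand of ICOS, averaged 6.70 ± 0.204 CPM in treated ECM, 18.6 ± 5.69 CPM in ECM and 5.19 ± 1.42 CPM in control libraries. Vsir, which encodes VISTA and had the highest level of the list, averaged 30.1 ± 6.49 CPM in treated ECM, 27.0 ± 9.5 CPM in ECM and 24.7 ± 7.41 CPM in control libraries and was not called. Cd276, which encodes B7-H3, was not called either, at 9.995 ± 1.25 CPM in treated ECM, 9.08 ± 1.62 CPM in ECM and 11.7 ± 1.48 CPM in control libraries. Cd80 was not called in ECM against control (0.81 ± 0.32, edgeR adjusted p = 0.146), and Cd28 had at most 9 counts in a library and was not tested.

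Tigit encodes TIGIT, an inhibitory receptor of T and NK cells that binds PVR and nectins, and lies on chromosome 16 from 43648867 to 43664146 (minus strand). Its counts were 2, 1, 1 and 8 in treated ECM, 42, 59, 23 and 87 in ECM and 0, 0, 1 and 0 in control libraries. The ECM libraries were separate from all others, and among treated ECM libraries number 4 held 8 of 12 reads. The mean was 0.185 ± 0.214 CPM in treated ECM, 3.54 ± 1.31 CPM in ECM and 0.0182 ± 0.0363 CPM in control libraries. Pooled reads, 211 in ECM against 1 in control, gave a ratio of 232 (95% counting interval 41.2 to 9204), and the gene was called (edgeR adjusted p = 5.71e-05). In treated ECM it was 18.6-fold lower than in ECM (log2 fold change -4.22 ± 0.60, edgeR adjusted p = 0.00161), and the difference from control was not called (12 reads against 1, ratio 11.6, interval 1.71 to 495, edgeR adjusted p = 0.32). Without treated ECM 4 the log2 fold change of treated ECM against ECM was -5.33, and without control 3, which held the single control read, the fitted value of ECM against control was 8.80 in place of 7.22.

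Of 6 tested genes for receptors related to TIGIT and for PVR and nectins, 2 rose and 1 fell in ECM against control, where 7.3% of all genes rose and 2.91% fell. Cd226, for the activating counterpart of TIGIT, and Cd96, for a related receptor, rose in ECM against control (log2 fold change 4.55 ± 0.91, edgeR adjusted p = 0.00492, and 5.19 ± 0.91, adjusted p = 0.00191). T and NK cells carry both receptors. Of the 4 genes for PVR and nectins, 1 was called in that comparison: Nectin3 fell, with 28.5 ± 2.14 CPM in treated ECM, 19.0 ± 2.04 CPM in ECM and 34.7 ± 7.16 CPM in control libraries (log2 fold change -0.87 ± 0.17, edgeR adjusted p = 0.00369). It was higher in treated ECM against ECM, as 3.04% of all genes were (0.59 ± 0.17, edgeR adjusted p = 0.0449). Pvr, the high-affinity ligand, averaged 10.3 ± 3.14 CPM in treated ECM, 11.001 ± 1.3 CPM in ECM and 6.70 ± 0.801 CPM in control libraries and was not called (0.71 ± 0.24, edgeR adjusted p = 0.0801 in ECM against control). Nectin1 and Nectin2 were not called in any comparison.

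Lag3 encodes LAG-3, an inhibitory receptor that T cells carry, that binds MHC class II and that is also known from microglia, and lies on chromosome 6 from 124904361 to 124911705 (minus strand). It had 105, 119, 99 and 99 counts in treated ECM, 122, 130, 36 and 230 counts in ECM and 79, 82, 38 and 36 counts in control libraries. Treated ECM libraries were close to one another and all above the controls, whereas ECM 3 lay within the control range and the other ECM libraries above the treated ones. The mean was 6.49 ± 1.06 CPM in treated ECM, 8.57 ± 3.94 CPM in ECM and 3.62 ± 1.24 CPM in control libraries. In ECM against control Lag3 missed the threshold (log2 fold change 1.24 ± 0.37, edgeR adjusted p = 0.0525). It was called there without ECM 3 (1.52, edgeR adjusted p = 0.00244) and by DESeq2 (adjusted p = 0.0109). The authors' deposited table gives a log2 fold change of 1.22 and an adjusted p of 0.0509 for it. Treated ECM differed from ECM by -0.41 ± 0.37 (edgeR adjusted p = 0.503) and from control by 0.83 ± 0.37 (adjusted p = 0.422).

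Most genes of a list of LAG-3 ligands and MHC class II genes were raised in ECM and in treated ECM. Of 5 tested, all 5 rose in ECM against control, where 7.3% of all genes rose. In treated ECM against control 4 were higher, as were 1.97% of all genes. The MHC class II genes Cd74, H2-Ab1, H2-Aa and H2-Eb1 had their highest means in treated ECM, for example 88.4 ± 36.0 CPM in treated ECM, 50.6 ± 11.8 CPM in ECM and 4.12 ± 1.58 CPM in control libraries for Cd74, the invariant chain. The difference between treated ECM and ECM was called for H2-Eb1 (log2 fold change 1.23 ± 0.32, edgeR adjusted p = 0.0315) and not for Cd74 (0.80 ± 0.33, adjusted p = 0.138), H2-Aa (0.90 ± 0.31, adjusted p = 0.0904) or H2-Ab1 (0.58 ± 0.32, adjusted p = 0.278). H2 genes have near-identical copies, so their counts are uncertain. Lgals3, which encodes the LAG-3 ligand galectin-3, averaged 2.499 ± 0.357 CPM in treated ECM, 12.7 ± 6.56 CPM in ECM and 0.640 ± 0.434 CPM in control libraries and fell in treated ECM against ECM (-2.35 ± 0.51, adjusted p = 0.014). The soluble ligand gene Fgl1 was too low to be tested.

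Havcr2 encodes TIM-3, an inhibitory receptor of T cells that monocytes and microglia also carry, and lies on chromosome 11 from 46454935 to 46481255 (plus strand). Its counts were 80, 64, 42 and 54 in treated ECM, 184, 202, 206 and 243 in ECM and 81, 69, 54 and 105 in control libraries. The 4 ECM libraries were separate from the rest, and treated ECM and control libraries overlapped. Mean levels were 3.63 ± 0.754 CPM in treated ECM, 14.7 ± 1.81 CPM in ECM and 4.90 ± 1.47 CPM in control libraries. Havcr2 rose in ECM against control (log2 fold change 1.59 ± 0.24, edgeR adjusted p = 0.000531) and fell 4.05-fold in treated ECM against ECM (-2.02 ± 0.24, adjusted p = 0.000652). Against control, treated ECM differed by -0.43 ± 0.24 (edgeR adjusted p = 0.485), the lone negative value of the 9 genes in that comparison.

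Because control brains held Havcr2 reads and next to no T cell marker reads, Havcr2 was also set against 10 microglia markers summed in the same library. Per 100 microglia marker counts there were 1.39, 1.26, 0.927 and 1.40 Havcr2 counts in treated ECM, 5.59, 5.18, 9.53 and 5.04 in ECM and 1.40, 1.29, 1.27 and 2.16 in control libraries. ECM libraries lay above all others on this scale too. The log2 ratio was 2.03 ± 0.28 (SE) higher in ECM than in control (exact two-sided permutation test, p = 0.0286) and lower in treated ECM than in ECM (-2.32 ± 0.26, exact p = 0.0286), the smallest p that 4 against 4 allows. The difference of treated ECM from control was -0.28 ± 0.23 (exact p = 0.314). The markers themselves changed: 4 of 10 fell in ECM against control, where 2.91% of all genes fell. Their sum was 246 to 344 CPM in treated ECM, 173 to 308 CPM in ECM and 310 to 334 CPM in control libraries. All 6 monocyte markers rose in ECM against control (7.3% of all genes), fell in treated ECM against ECM (5.68%) and were higher in treated ECM than in control (1.97%). Their part in the level of Havcr2 was not tested.

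Of 5 tested genes for TIM-3 ligands and adaptors, 2 rose in ECM against control and both fell in treated ECM against ECM. Of all genes tested, 7.3% rose and 5.68% fell in the same comparisons. Lgals9, which encodes galectin-9, averaged 17.9 ± 3.98 CPM in treated ECM, 37.3 ± 13.3 CPM in ECM and 5.31 ± 1.57 CPM in control libraries (ECM against control 2.81 ± 0.31, edgeR adjusted p = 4.51e-05) and remained above control in treated ECM (1.75 ± 0.30, adjusted p = 0.0057). Ceacam1, a ligand in cis and trans, averaged 2.83 ± 0.895 CPM in treated ECM, 9.37 ± 1.93 CPM in ECM and 3.94 ± 1.34 CPM in control libraries. The adaptor genes Bag6 and Fyn and the ligand gene Hmgb1 were not called in any comparison.

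Klrc1, Klrd1 and Klrk1 lie in the NK gene complex on chromosome 6 (mm10): Klrd1 from 129591782 to 129598775 (plus strand), Klrk1 from 129610323 to 129623864 (minus strand) and Klrc1 from 129666015 to 129678973 (minus strand). Klrc1 encodes NKG2A, the inhibitory partner of CD94. Its counts were 2, 1, 0 and 7 in treated ECM, 35, 33, 27 and 55 in ECM and 0 in all 4 control libraries. In CPM the ECM libraries were close to one another, 2.56 ± 0.289 CPM, against 0.153 ± 0.197 CPM in treated ECM. Klrc1 reads were 55.0-fold higher in ECM than in control, taking 3 counts over the control group as the floor (edgeR adjusted p = 0.000342). As for Ctla4, this fold leaves out the counting error of the ECM reads and is not a lower limit. It was 16.0-fold lower in treated ECM than in ECM (log2 fold change -4.004 ± 0.64, edgeR adjusted p = 0.00529, and -5.24 without treated ECM 4). The 10 reads of treated ECM, of which library 4 held 7, were 3.22-fold above the control floor, again without their counting error. This difference was not called (edgeR adjusted p = 0.26). Klrc1 resembles its neighbours Klrc2 and Klrc3, which had at most 6 and 3 counts in a library, and reads may be split among them.

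Klrd1 encodes CD94, the shared chain of the CD94/NKG2 receptors. It had 6, 5, 4 and 13 counts in treated ECM, 18, 50, 14 and 32 counts in ECM and 0, 0, 0 and 1 counts in control libraries. The groups did not overlap in CPM, and ECM 2 and treated ECM 4 were the highest of their groups. Pooled reads of 114 in ECM against 1 in control gave a ratio of 125 (95% counting interval 22.0 to 4992, edgeR adjusted p = 0.000163). In treated ECM Klrd1 fell against ECM (log2 fold change -2.21 ± 0.54, edgeR adjusted p = 0.0247) and was above control (28 reads against 1, ratio 27.0, interval 4.47 to 1105, edgeR adjusted p = 0.0383). The fall was not called without treated ECM 1, 2 or 3 or without ECM 2 (edgeR adjusted p up to 0.0867), and the difference from control was not called in 9 of the 12 fits that left out 1 library (adjusted p up to 0.137). Without control 4, which held the single control read, the fitted log2 fold change was 7.98 in place of 6.40 in ECM against control and 5.77 in place of 4.19 in treated ECM against control.

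Klrk1 encodes NKG2D, which binds stress-induced ligands. Its counts were 17, 16, 16 and 11 in treated ECM, 39, 74, 34 and 46 in ECM and 2, 1, 0 and 3 in control libraries. The 3 groups were separate from one another, and ECM 2 lay apart at 5.83 CPM. Klrk1 averaged 0.916 ± 0.167 CPM in treated ECM, 3.47 ± 1.59 CPM in ECM and 0.0929 ± 0.0854 CPM in control libraries. It rose in ECM against control (log2 fold change 5.08 ± 0.54, edgeR adjusted p = 3.16e-05) and fell in treated ECM against ECM (-1.91 ± 0.41, adjusted p = 0.0132, or 0.0523 without treated ECM 4). In treated ECM it remained 9.02-fold above control (log2 fold change 3.17 ± 0.57, edgeR adjusted p = 0.00715). None of 6 genes for its adaptor and ligands reached the test; the adaptor gene Hcst had at most 21 counts in a library, and the ligand genes H60c and Ulbp1 had 0 counts in all 12.

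The ligand of CD94/NKG2A in mice is Qa-1, encoded by H2-T23. H2-T23 averaged 53.4 ± 10.1 CPM in treated ECM, 108 ± 33.3 CPM in ECM and 11.8 ± 3.44 CPM in control libraries. It rose in ECM against control (log2 fold change 3.19 ± 0.29, edgeR adjusted p = 7.96e-06), fell in treated ECM against ECM (-1.02 ± 0.26, adjusted p = 0.0319) and stayed above control in treated ECM (2.17 ± 0.27, adjusted p = 0.000449). Tyrobp, which encodes an adaptor of activating NK receptors and is abundant in microglia, rose in ECM against control (1.43 ± 0.35, edgeR adjusted p = 0.0197).

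Markers that separate NK cells from CD8 T cells were near the detection limit. Ncr1, which encodes NKp46, had 8 reads over treated ECM, 3 over ECM and 0 over control libraries. Klrb1c, which encodes NK1.1, had 7 reads over treated ECM, 16 over ECM and 1 over control libraries, and Klra4 had 8 over treated ECM, 13 over ECM and 0 over control libraries. Eomes, the single NK cell marker that could be tested, is also known from cells of the neuronal lineage, averaged 11.97 ± 10.5 CPM in treated ECM, 6.24 ± 6.71 CPM in ECM and 15.9 ± 13.8 CPM in control libraries and was not called. Of 23 other NK receptor genes 5 were tested. Genes with few control reads can enter the test only through the other groups, so the count describes the tested genes alone. All 5 rose in ECM against control, where 7.3% of all genes rose: Cd244a, Cd48, Klra2, Slamf6 and Slamf7. T cells or myeloid cells are also known to carry these. Slamf7 was the one still above control in treated ECM, with 1.43 ± 0.469 CPM in treated ECM, 3.57 ± 1.17 CPM in ECM and 0.0591 ± 0.0441 CPM in control libraries (treated ECM against control 4.35 ± 0.55, edgeR adjusted p = 0.000423).

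**Figure D3:**
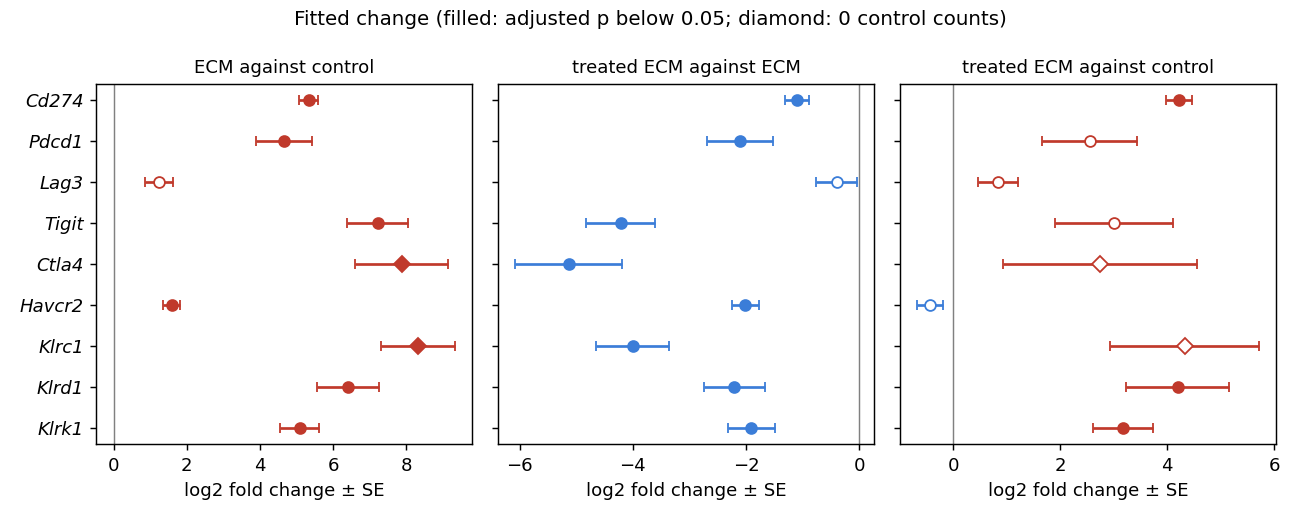
Log2 fold change ± SE of the 9 genes in 3 comparisons (edgeR, linear axes with own range; Pdcd1 and Ctla4 from the second fit). Filled symbols passed an adjusted p of 0.05, and diamonds mark Ctla4 and Klrc1, whose 0 counts in controls leave a fitted value that is no bound; Lag3 is open in all 3 panels.

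Helper genes of T cell activation were examined beside the checkpoint genes. Of 6 tested costimulatory TNF receptor and ligand genes, 3 rose in ECM against control, where 7.3% of all genes rose: Tnfrsf9 (4-1BB), Tnfrsf4 (OX40) and Cd27. Tnfrsf9 averaged 0.948 ± 0.256 CPM in treated ECM, 2.68 ± 1.65 CPM in ECM and 0.322 ± 0.204 CPM in control libraries (ECM against control 3.04 ± 0.52, edgeR adjusted p = 0.0017). Cd27 alone fell in treated ECM against ECM (-2.28 ± 0.57, edgeR adjusted p = 0.0274), where 5.68% of all genes fell. Among 12 transcription factor genes linked to T cell exhaustion or effector function, 2 rose in ECM against control, where 7.3% of all genes rose. They were Batf (3.54 ± 0.51, edgeR adjusted p = 0.000401) and Nfatc1 (0.90 ± 0.19, adjusted p = 0.00784). Tox, the factor best known from exhausted T cells, averaged 18.1 ± 2.06 CPM in treated ECM, 21.5 ± 11.01 CPM in ECM and 20.7 ± 10.8 CPM in control libraries and was not called. The median log2 fold change of the 12 was 0.43 in ECM against control and 0.06 in treated ECM against ECM. In the latter comparison 1 of the 12 was higher and 2 were lower, where 3.04% of all genes were higher and 5.68% lower. Regulatory T cells, which carry CTLA-4 and TIGIT, could not be followed by their marker, since Foxp3 had at most 10 counts in a library.

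In treated ECM against ECM 7 of the 9 T cell markers also fell, where 5.68% of all genes fell. Therefore 7 of the receptor genes, without Havcr2, were also expressed per 100 summed T cell marker counts of the same library. Those sums were 172, 106, 162 and 306 counts in treated ECM, 485, 753, 481 and 921 counts in ECM and 38, 39, 18 and 18 counts in control libraries, the last too few for a ratio. On this scale Tigit was at 1.45, 1.41, 0.923 and 2.77 in treated ECM, against 8.75, 7.90, 4.88 and 9.50 in ECM, and every treated ECM library was lower (log2 difference -2.31 ± 0.39 SE, exact two-sided permutation test, p = 0.0286). Ctla4 (-2.51 ± 0.59, exact p = 0.0286) and Klrc1 (-2.38 ± 0.66, exact p = 0.0286) were likewise lower in all 4 treated ECM libraries. With 0.1 in place of 0.5 added to each count, the difference was -3.81 for Ctla4 and -3.13 for Klrc1. The exact p was 0.0571 for Ctla4 without treated ECM 2 or 3 and for Klrc1 without any 1 of the ECM libraries, and the Klrc1 difference was -1.76 without treated ECM 3.

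Klrd1, Klrk1 and Pdcd1 overlapped between the groups on this scale. Per 100 T cell marker counts, Klrd1 was at 3.77, 5.16, 2.77 and 4.40 in treated ECM, against 3.81, 6.70, 3.01 and 3.53 in ECM, and the groups overlapped (log2 difference -0.05 ± 0.32, exact p = 0.857). Klrk1 (0.26 ± 0.48, exact p = 0.571) and Pdcd1 (-0.07 ± 0.72, exact p = 0.971) had SEs that leave room for sizeable differences in either direction. Lag3 stood at 61.2, 112, 61.2 and 32.5 in treated ECM, against 25.2, 17.3, 7.58 and 25.01 in ECM, all treated ECM libraries being higher (1.84 ± 0.55, exact p = 0.0286, or 0.0571 without any 1 of the ECM libraries). Lag3 is the receptor gene of this set, beside Havcr2, with a clear level in control brains, where T cell markers were low. Over the control libraries Lag3 had 235 reads and the T cell markers 113. In treated ECM against ECM Lag3 itself was not called (log2 fold change -0.41 ± 0.37, edgeR adjusted p = 0.503), whereas 7 of the 9 markers fell. The Lag3 ratio can thus rise through its denominator alone, and its exact p does not measure a change of Lag3 in T cells. These p-values are unadjusted; 10 such ratios were computed, and 0.0286 is the smallest p that 4 against 4 allows. Whether the ratios of 2 genes differ from each other was not tested.

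**Figure D4:**
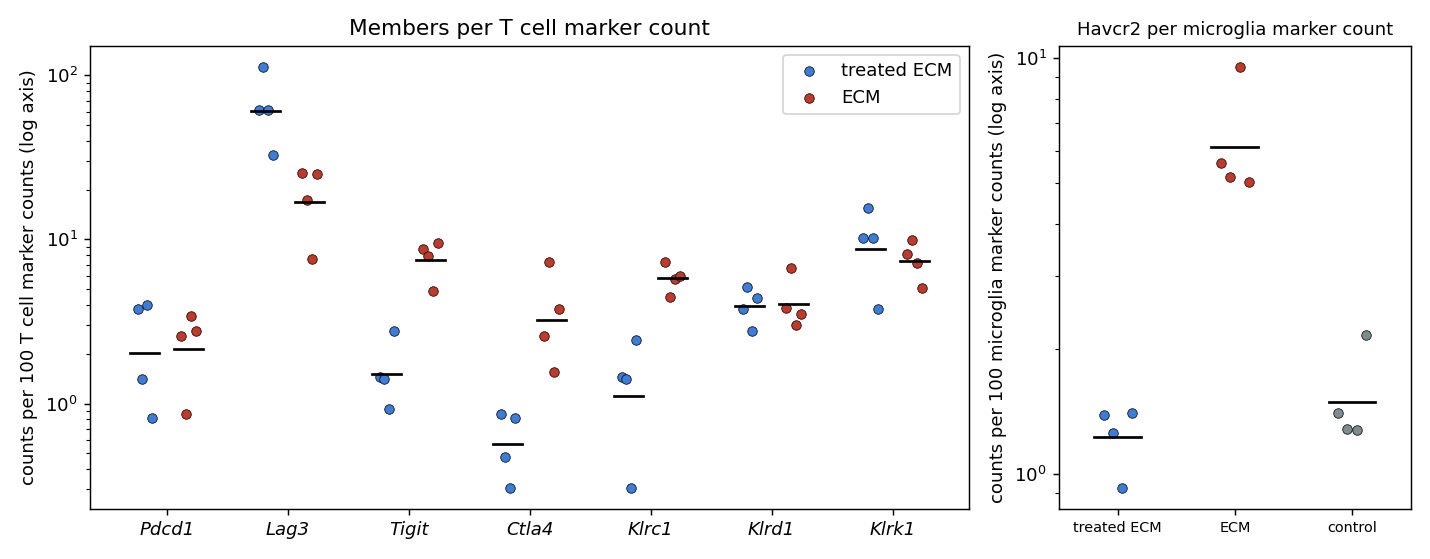
Left, counts of 7 receptor genes per 100 summed T cell marker counts in each treated ECM and ECM library; right, Havcr2 per 100 microglia marker counts in treated ECM, ECM and control libraries (log axes, 0.5 added to counts, lines at group means of the log ratio). Tigit, Ctla4 and Klrc1 are lower in all 4 treated ECM libraries, Lag3 is higher, and Pdcd1, Klrd1 and Klrk1 overlap.

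Levels of different genes were compared per length, as RPKM, here the CPM divided by the length of the merged exons in kilobases. In ECM the order was Cd274 (31.4 ± 7.60 RPKM), Havcr2 (5.41 ± 0.663), Lag3 (4.06 ± 1.87), Tigit (3.86 ± 1.43), Klrd1 (1.58 ± 1.01), Klrc1 (1.29 ± 0.146), Ctla4 (0.803 ± 0.716), Pdcd1 (0.512 ± 0.200) and Klrk1 (0.483 ± 0.222). Cd274 was the lone gene there whose libraries did not overlap with those of the next gene. This order depends on the annotated exons, which span 7183 bases for Klrk1 and 919 for Tigit once merged. Before division by length, Klrk1 averaged 3.47 CPM in ECM and Tigit 3.54 CPM. In treated ECM the first 4 were Cd274 (14.6 ± 3.34 RPKM), Lag3 (3.08 ± 0.501), Havcr2 (1.33 ± 0.277) and Klrd1 (0.336 ± 0.205), the first 3 of them separate from the next, and from Klrd1 on neighbours overlapped. Control brains held Havcr2 (1.80 ± 0.542 RPKM), Lag3 (1.72 ± 0.588) and Cd274 (0.781 ± 0.0877), and the other 6 genes were at or below 0.0198 RPKM. Havcr2 and Lag3 overlapped in controls, and Cd274 was separate from both its neighbours in that order.

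For each of the 7 tested genes the 3 genes of most similar pattern over the 12 libraries were found, as the root mean square difference of log2 CPM after centring each gene. Cd274 was closest to Igtp (0.25), Gbp6 (0.36) and Il1rn (0.37), of which Igtp and Gbp6 encode interferon-inducible GTPases. Tigit and Klrc1 were each other's nearest gene (0.32), followed by Hmox1 and Ddx60 for Tigit and by Cd3g and Hmox1 for Klrc1. Havcr2 was nearest to Setdb2 (0.23), Cd33 (0.25) and Tlr13 (0.28), and Lag3 to Tyrobp (0.26), Cmtm7 (0.27) and Cd37 (0.27). Klrd1 was nearest to Rac2 (0.32), Pglyrp1 (0.42) and Gpr132 (0.42), and Klrk1 to Ms4a6d (0.36), Mlkl (0.39) and Ms4a6b (0.43). Among the 7 tested genes themselves, Klrk1 and Klrd1 were the next closest pair after Tigit and Klrc1 (0.51). Low counts move such distances, and the Gbp and Ms4a6 genes have close relatives with which reads may be shared.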

How the data were processed

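Brain RNA libraries were made with a NEBNext Ultra kit, per the labels' protocols. Trimmomatic, FastQC, STAR and HTSeq and build mm10 are named in the submitters' processing notes, which made the deposited read count of each gene; no versions are stated there. In 2212 genes with long names the deposited values were displaced. They were put back, and treated ECM 4 was left out for them, because its repaired values differed from the authors' tables in 77 of 85 shared genes; none of the 9 genes is affected, but Pdcd1lg2 is. This departs from the planned fit of 12 libraries. 26 gene names turned into dates were dropped.

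TMM scaling and filterByExpr preceded a quasi-likelihood test in edgeR 4.0.16 (R 4.3.3), with a mean per group and 3 contrasts. Benjamini-Hochberg adjustment ran over the 14602 genes tested. The standard minimum count was 10 and that of the second fit 3. CPM uses TMM library sizes. Ratios to marker sums added 0.5 to each count and were tested by exact permutation (scipy 1.17.1). Counting intervals are exact conditional binomial 95% intervals. Alternatives were DESeq2 1.42.0, RLE factors, other filters, a replicate block, fits of 2 groups and omission of libraries, run for Pdcd1 and Ctla4 at the minimum count of 3. The script was tested on simulated data. Coordinates and exon lengths are from GENCODE M21.

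The authors' deposited tables give a log2 fold change, a p-value and an adjusted p-value per comparison; the deposited signal (normalized count) and FPKM columns of these tables were used for no test. The 9 genes, the lists and the tests were chosen with earlier results of these data known. Genes named from a list are its up to 4 most abundant tested members; others are named because they were called or because a partner of a receptor was too low to test, and were chosen after their values were seen. Replicate numbers were checked for pairing: deviations of same-numbered libraries correlated between -0.61 and 0.30, so the numbers were not taken to pair libraries. Reads from near-identical or antisense genes could not be separated. Values of 1 pathway gene and of 1 alternative denominator for Havcr2 are not reported here.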

Additional observations from a re-analysis of the deposited data

Results flagged for a closer look

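In 47 groups of 4 libraries examined, a highest or lowest library stood apart by Dixon's test in 8. The test marks about 1 group in 20 by chance when values are independent and normally spread. Some groups here rest on single reads or repeat the same libraries, so the 8 cannot be set against that rate. Treated ECM 4 was the high library for Tigit (0.506 CPM) and for Klrd1 (0.821 CPM). ECM 2 was high for Klrk1 (5.83 CPM). Control 4 was high for Havcr2 (7.10 CPM). For Tigit (0.0727 CPM in control 3) and Klrd1 (0.0676 CPM in control 4), the mark rests on a single read, with 0 counts in the other 3 controls. Havcr2 per 100 microglia marker counts was high in ECM 3 at 9.53, which was marked in both comparisons that use the ECM group; the microglia marker sum of ECM 3, 173 CPM, was the lowest of all libraries.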

How the results depend on the processing

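The number of the 9 genes called stayed within 1.5 times under every alternative. With 1 library left out it was 6 to 8 in ECM against control, 6 to 8 in treated ECM against ECM and 2 to 3 in treated ECM against control. Without control 4, ECM 2 and ECM 3 together it was 9, 8 and 3. The number tested changed too, from 7 to as many as 9 with libraries left out, when Pdcd1 and Ctla4 also passed the filter. With only the 2 groups compared, 4 were tested in treated ECM against control and 2 were called. The share of all genes called in the fits with libraries left out is not given. The replicate block gave 6, 6 and 3 calls, as without it, and the numbers do not pair the libraries. Of 502 comparisons of single genes with an alternative, 472 kept their direction and side of the threshold, 27 lost a call and 3, all Lag3 in ECM against control, gained one. Pdcd1 in treated ECM against ECM had an edgeR adjusted p of 0.0501 with no filter on low counts, 0.0502 with only the 2 groups compared and 0.0848 with the replicate block. Per T cell marker count, Pdcd1 and Klrd1 changed sign when Cd3d, Cd3e and Cd3g alone were the denominator (0.15 and 0.17). They also did so when Lck was left out (0.14 and 0.16), an alternative chosen after seeing the data. The exact p was far above 0.05 throughout. Lck held 25.9% of these counts in treated ECM, 17.9% in ECM and 67.3% in controls. With 1 library left out, the 10 ratios ranged from -0.51 to 0.37 for Pdcd1, 1.45 to 2.14 for Lag3, -2.61 to -2.08 for Tigit, -2.86 to -2.12 for Ctla4, -2.76 to -1.76 for Klrc1, -0.19 to 0.19 for Klrd1 and -0.012 to 0.67 for Klrk1 (the ranges of Pdcd1, Klrd1 and Klrk1 include 0), and for Havcr2 from 1.82 to 2.21, -2.41 to -2.10 and -0.36 to -0.11. Pdcd1, Tigit, Ctla4, Klrc1 and Klrd1 rest on at most 28 reads over the treated ECM group.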

Other observations

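Klrc1 and Klrd1 encode the chains of 1 receptor, and their ratio was looked at after the values were seen. Klrc1 reads per Klrd1 read were 0.333, 0.2, 0 and 0.538 in treated ECM libraries, against 1.94, 0.66, 1.93 and 1.72 in ECM libraries. The groups did not overlap; the treated ECM values rest on 10 Klrc1 and 28 Klrd1 reads in all, and no test was made.

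Klre1, a further NK receptor gene of this family, had 11, 5, 6 and 3 counts in treated ECM, 3, 1, 1 and 0 in ECM and 0, 0, 3 and 3 in control libraries, and the groups overlapped. It was below the filter in the standard fit and chosen after its values were seen. Cd70, the ligand gene of CD27, averaged 0.632 ± 0.179 CPM in treated ECM, 0.0910 ± 0.107 CPM in ECM and 0.861 ± 0.677 CPM in control libraries, with no call by edgeR in any comparison (adjusted p = 0.0663 in ECM against control).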
